A study of Mus musculus with 9 samples.

Results

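The myosin light chains are the small subunits that clasp the neck of the myosin motor. The 8 genes examined here, Myl1, Myl2, Myl3, Myl4, Myl6, Myl7, Myl9 and Mylpf, were taken by name, each at the probe set with a single gene symbol and the highest mean over all 9 arrays, out of 19935 genes read in the same way. All 8 were measured. The arrays came from the right ventricle together with the interventricular septum of adult mouse hearts on a mixed C57BL/6 background. The 5 wild-type hearts are given the genotype Ezh2f/f, floxed alleles without a recombinase, although their titles read f/wt, and that conflict was not resolved here. The 4 Ezh2-deficient hearts are given as Ezh2f/f;Mef2cAHF::Cre, floxed alleles with a Cre recombinase under the anterior heart field enhancer of Mef2c, which acts in embryonic progenitors of the right ventricle, septum and outflow tract. Cells of other origin in the tissue keep Ezh2. Ezh2 is the methyltransferase of Polycomb repressive complex 2. All Ezh2-deficient and no wild-type hearts carried Cre, so that loss of Ezh2 and presence of Cre cannot be told apart. The labels speak of separate mice, and heart numbers below only name samples.

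Each muscle myosin head binds 1 essential and 1 regulatory light chain, and tissues differ in which genes supply them. Ventricular muscle uses Myl2 as the regulatory and Myl3 as the essential chain, and slow skeletal fibres share both. Atrial muscle uses Myl7 and Myl4, which the embryonic ventricle also makes before birth. Fast skeletal fibres use Mylpf and Myl1. Smooth muscle and non-muscle cells use Myl9 or its relatives Myl12a and Myl12b as the regulatory chain and Myl6 as the essential chain. Phosphorylation of the regulatory chain by myosin light chain kinases raises the force or activity of the motor, and a phosphatase reverses it.

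Values are log2 expression values, so that a step of 1 is a doubling, and levels of different genes are not compared because probes differ in brightness. Array medians lay between 7.19 and 7.25, and Pearson's r between arrays over all probe sets between 0.990 and 0.997. The targeted gene read 8.60 to 8.89 in wild-type and 8.74 to 8.98 in Ezh2-deficient hearts (difference 0.15, limma adjusted p = 0.485), so this probe set did not separate the genotypes. Which part of the transcript it reads is not known here, and directions refer to the groups as labelled. By Y-linked genes, 1 wild-type and 2 Ezh2-deficient hearts came from females. Titles carry a letter e (2 and 2 hearts) or x (3 and 2) of unstated meaning. Ventricular and general cardiomyocyte markers were bright in every heart, with a list mean over 12 genes of 13.1 to 13.2 in wild-type and 12.9 to 13.1 in Ezh2-deficient hearts. In this bulk tissue, fewer cells of a type and less RNA per cell cannot be told apart.

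None of the 8 light chain genes passed the test between genotypes (limma, adjusted over 28815 probe sets, threshold 0.05), where 0.0347% of all probe sets passed, 0.0243% as higher and 0.0104% as lower in Ezh2-deficient hearts. Of the 8, Myl9 and Myl6 had an unadjusted p under 0.05, both with a higher mean in Ezh2-deficient hearts. That is 2 of 8 against 10.7% of all probe sets in either direction, 5.23% as higher and 5.45% as lower. The mean was higher in Ezh2-deficient hearts at 6 of the 8, against 47.1% of all probe sets. The 2 groups overlapped at all 8 genes; over the whole table they did not overlap at 3.71% of probe sets. The median difference of the 8 was 0.06, beside -0.01 over all probe sets. The classes differed in how much single hearts varied. The ventricular chains stayed within 0.20 over all 9 hearts, whereas within a genotype the atrial chains ranged over 2.95 to 4.13 log2 units, as the plot of each heart's values shows.

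**Figure D1:**
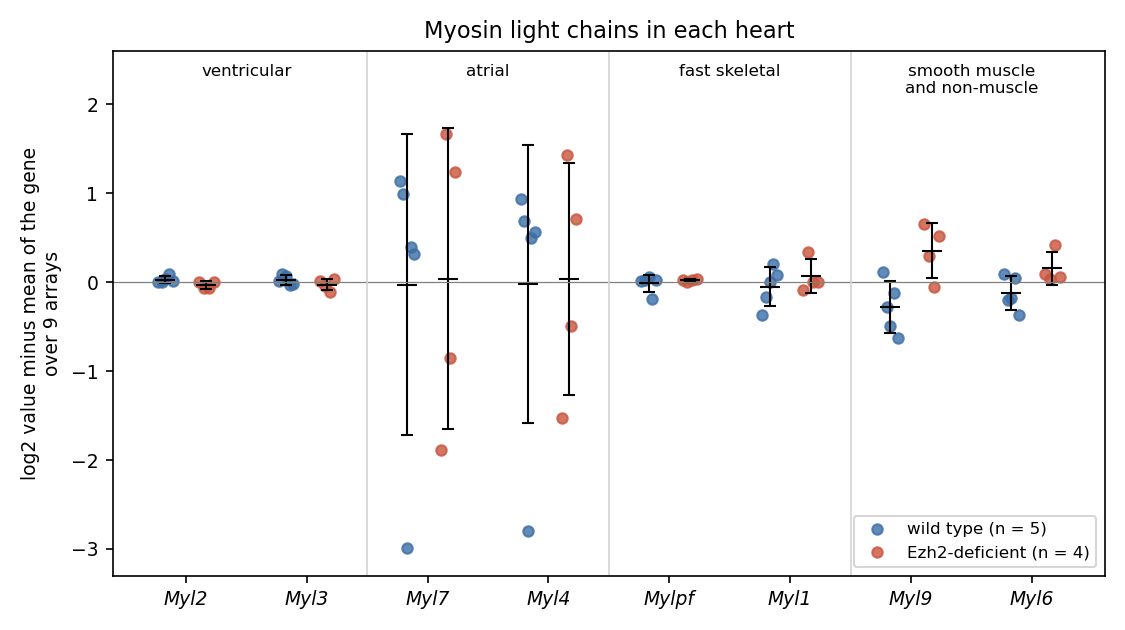
Log2 value of each myosin light chain gene in each heart minus that gene's mean over the 9 arrays, for 5 wild-type (blue) and 4 Ezh2-deficient (red) hearts; black bars are the group mean and SD. Myl7 and Myl4 spread over 4.66 and 4.23 log2 units with both genotypes intermixed, while Myl2 and Myl3 stay within 0.16 and 0.20.

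The ventricular regulatory chain Myl2, on which kinase signalling in the ventricle acts, hardly varied. It read 13.73, 13.73, 13.76, 13.82 and 13.75 in wild-type hearts 1 to 5 and 13.73, 13.66, 13.66 and 13.73 in Ezh2-deficient hearts 1 to 4. Ezh2-deficient hearts 2 and 3 lay below every wild-type heart, while hearts 1 and 4 lay at the bottom of the wild-type range. The difference was -0.06 (SE 0.04, limma adjusted p = 0.617; exact permutation p = 0.0556), with a 95% interval from -0.15 to 0.03, or 0.901 to 1.02 of the wild-type level. Among hearts of letter e it was 0.0015, among those of letter x -0.12.

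The ventricular essential chain Myl3 was about as steady. It lay between 13.54 and 13.66 in wild-type hearts and between 13.47 and 13.61 in Ezh2-deficient hearts, lowest in Ezh2-deficient heart 3. The difference of -0.05 (SE 0.05, limma adjusted p = 0.737) had an interval from -0.15 to 0.05, or 0.899 to 1.04 of the wild-type level. Their mean values exceeded those of 99.8% and 99.7% of probe sets, and how linear the array response is at that brightness was not tested. At 10 of the 12 ventricular and general cardiomyocyte markers the Ezh2-deficient mean lay below the wild-type mean, and at 2 above it. Over all probe sets, 47.1% had a higher mean in Ezh2-deficient hearts. The median difference of these 12 was -0.08 and 0 passed by limma. At an unadjusted p under 0.05, 1 was lower, against 5.45% of all probe sets. The groups did not overlap at 2, Tnni3 (-0.17) and Tnnt2 (-0.09), against 3.71% of all probe sets. Whether the Myl2 and Myl3 differences belong to the same small decrease was not tested.

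The atrial regulatory chain Myl7 showed the opposite behaviour. It read 11.10, 10.95, 6.97, 10.36 and 10.28 in wild-type hearts 1 to 5 and 8.07, 11.63, 9.11 and 11.19 in Ezh2-deficient hearts 1 to 4. Wild-type heart 3 was by far the lowest, followed by Ezh2-deficient hearts 1 and 3, and Ezh2-deficient heart 2 was the highest, so that the 2 genotypes were intermixed. Myl7 was above the median of its own array in 8 of 9 hearts, the exception being wild-type heart 3. From the lowest to the highest heart this is a span of 4.66 on the log2 scale, or 25.2-fold. The group means were 9.93 ± 1.69 (SD, n = 5) and 9.999 ± 1.69 (SD, n = 4). Their difference of 0.07 (SE 0.96, limma adjusted p = 0.99; exact permutation p = 0.944) had an interval from -2.07 to 2.21, or 0.238 to 4.63 of the wild-type level. A change of several fold in either direction lay inside that interval and was not detectable with these hearts.

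The atrial essential chain Myl4 followed Myl7 heart by heart. It read 11.62, 11.38, 7.88, 11.18 and 11.24 in wild-type hearts 1 to 5 and 9.16, 12.11, 10.20 and 11.40 in Ezh2-deficient hearts 1 to 4. The same 3 hearts were lowest and in the same order, and the same heart was highest. The span was 4.23, or 18.8-fold. The difference was 0.06 (SE 0.83, limma adjusted p = 0.99; exact permutation p = 0.944), with an interval from -1.79 to 1.90. Over the 9 arrays Pearson's r between Myl4 and Myl7 was 0.987, and 0.982 without wild-type heart 3. This is a description, since the values share the arrays and their normalization.

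The direction of either atrial difference depended on single hearts. Without wild-type heart 3 the difference became -0.67 for Myl7 and -0.64 for Myl4. Without Ezh2-deficient heart 1 it became 0.71 and 0.57. Among hearts of letter e alone it was -1.39 and -1.22, and among those of letter x 1.17 and 1.05. The 3 lowest hearts, which included both letters, were those of 1 male and 2 females. Among the 3 hearts of females Myl4 read 9.16, 10.20 and 11.18, below every male heart (11.24 to 12.11) except wild-type heart 3 at 7.88. Myl7 lay between 8.07 and 10.36 in females and between 6.97 and 11.63 in males. With the mean of Y-linked genes as a covariate the difference between genotypes was 0.48 for Myl7 and 0.33 for Myl4, and with array weights 0.97 and 0.83, none past the threshold. Those weights were highest for wild-type heart 3 (2.30). The part of sex in the spread was not tested. By SD within genotypes, Myl7 ranked 9 and Myl4 ranked 14 among all 28815 probe sets. Among the 19935 genes with a single symbol they ranked 4 and 5, behind Xist, Eif2s3y and Uty, genes of the sex chromosomes, in a series that mixes males and females.

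The upstream sequences of Myl7 and Myl4 are shown because these genes moved together from heart to heart, with those of the steady ventricular gene Myl3 and of Myl9, which had the largest difference in mean, beside them. They are RefSeq promoter windows of build GRCm38.p6, cut to the 250 bases before the annotated start and written 5′ to 3′ on the gene's strand. Capitals mark CArG boxes, the sequence that serum response factor recognises, searched on both strands. The windows are chr11:5898783-5899032 on the minus strand, chr11:104550413-104550662 on the plus strand, chr9:110763428-110763677 on the plus strand and chr2:156775214-156775463 on the plus strand.
Myl7: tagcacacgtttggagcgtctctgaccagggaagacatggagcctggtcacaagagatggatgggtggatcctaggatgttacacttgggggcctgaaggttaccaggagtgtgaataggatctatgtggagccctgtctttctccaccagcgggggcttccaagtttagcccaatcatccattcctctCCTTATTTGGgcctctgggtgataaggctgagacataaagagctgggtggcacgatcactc
Myl4: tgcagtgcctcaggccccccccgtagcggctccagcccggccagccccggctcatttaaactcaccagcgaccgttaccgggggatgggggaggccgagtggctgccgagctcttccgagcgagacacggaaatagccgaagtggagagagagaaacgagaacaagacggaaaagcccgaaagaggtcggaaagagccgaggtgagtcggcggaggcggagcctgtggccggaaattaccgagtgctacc
Myl3: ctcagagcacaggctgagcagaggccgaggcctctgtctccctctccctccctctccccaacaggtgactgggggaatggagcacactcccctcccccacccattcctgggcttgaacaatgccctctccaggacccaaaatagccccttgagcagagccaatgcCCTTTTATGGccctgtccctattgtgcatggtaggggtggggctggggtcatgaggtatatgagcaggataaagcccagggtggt
Myl9: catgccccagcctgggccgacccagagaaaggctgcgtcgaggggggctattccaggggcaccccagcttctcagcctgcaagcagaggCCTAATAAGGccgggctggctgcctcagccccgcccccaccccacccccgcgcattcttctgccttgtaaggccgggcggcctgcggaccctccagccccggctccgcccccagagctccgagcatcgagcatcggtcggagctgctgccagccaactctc

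The 8 genes have 10 windows. A CArG box was found in 4 of the 10, each of a different gene, against 1.47% of 32851 mouse promoter windows of the same length. It read CCTTATTTGG starting 61 bases upstream of the Myl7 start, CCTTTTATGG 85 bases upstream for Myl3 and CCTAATAAGG 161 bases upstream for Myl9. The second of 2 Myl6 windows held CCTTATATGG 50 bases upstream. Neither window of the other ventricular gene, Myl2, held a CArG box, nor did those of Myl1 and Mylpf. The Myl4 window held none of the motifs searched and was rich in CpG, with 23 CpG against a median of 6 over all windows and 4 in the Myl7 window. The GATA core GATAA was in 4 of the 10 windows (22.6% of all windows), the MCAT sequence CATTCC in 3 (12.6%) and the TATA sequence TATAAA in 2 (12.4%). The E-box CANNTG was in 7, of 6 genes (66.2% of all windows), and the MEF2 consensus in 0 (0.508%). All were searched on both strands, overlaps between motifs were kept, and a match describes the letters only. The Myl7 and Myl3 windows each held the CArG box, the E-box, GATAA and CATTCC.

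Other genes of atrial muscle were set beside the atrial light chains. The likeness rule ranks genes that ranged over more than 0.5 by Pearson's r over the 9 arrays. The genes it names are the highest of 4359 searched, so their r is a description and not a test. By this rule the genes most like Myl7 were Myl4 (0.987), Fgf12 (0.960) and Mybphl (0.935). Those most like Myl4 were Myl7, Fgf12 (0.967) and Sln (0.955). Fgf12 encodes an intracellular fibroblast growth factor homologue that binds sodium channels, Mybphl an atrial relative of myosin-binding protein H, and Sln encodes sarcolipin, which restrains the calcium pump in atrial muscle. Mybphl read 8.14, 7.87, 6.67, 7.60 and 7.51 in wild-type hearts and 6.68, 8.77, 7.04 and 8.03 in Ezh2-deficient hearts, with the same 3 hearts lowest as for Myl7 and the same heart highest. Sln was lowest in those 3 hearts too, at 6.89 in wild-type heart 3 and 7.18 and 7.60 in Ezh2-deficient hearts 1 and 3, and highest in Ezh2-deficient heart 2 at 8.35. The plot of hearts ordered by Myl7 shows these genes together.

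**Figure D2:**
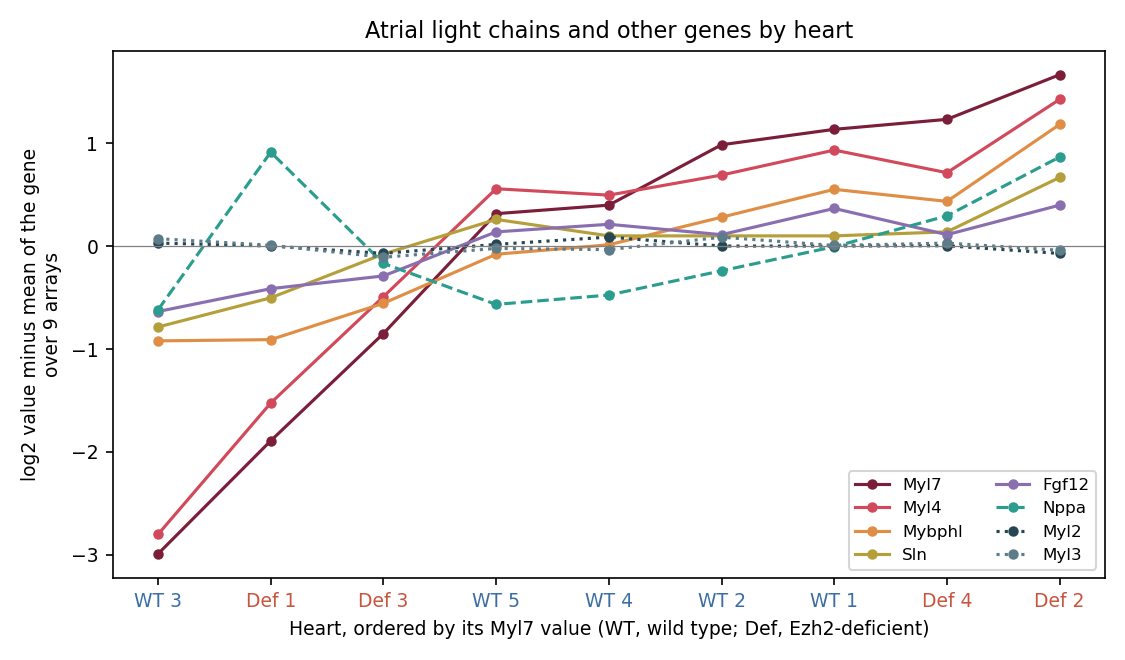
Log2 value of 8 genes minus each gene's mean over the 9 arrays, with the hearts ordered by Myl7 (WT, wild type in blue; Def, Ezh2-deficient in red). Myl4, Mybphl, Sln and Fgf12 are low in the same 3 hearts as Myl7, Nppa is not low in Ezh2-deficient heart 1, and Myl2 and Myl3 are flat.

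The atrial marker list as a whole did not move as 1 block. Of its 10 measured genes, 0 passed between genotypes by limma, and the median difference was 0.09. At an unadjusted p under 0.05, 1 was higher and 1 lower, against 5.23% and 5.45% of all probe sets. The list mean ran from 7.94 to 8.47 in wild-type and from 8.09 to 8.73 in Ezh2-deficient hearts, and no marker is at 0 because the lowest value of the whole table is 2.18. Pearson's r with Myl7 over the 9 arrays was 0.935 for Mybphl and 0.928 for Sln. It was 0.798 for Dkk3, 0.627 for Bmp10, 0.623 for Kcnj3 and 0.542 for Gja5. It was 0.201 for Kcnj5, 0.199 for Nppa, -0.03 for Nr2f2, the atrial identity factor COUP-TFII, and -0.19 for Nr2f1. Several of these depended on 1 heart. Without wild-type heart 3, r was 0.955 for Mybphl, 0.858 for Sln, 0.767 for Kcnj3, 0.613 for Gja5 and 0.558 for Dkk3. It was 0.529 for Kcnj5, 0.494 for Bmp10, 0.103 for Nr2f1, -0.07 for Nr2f2 and -0.13 for Nppa. Bmp10 and Nr2f1 read below the array median in all 9 hearts, and Nr2f1 spanned only 0.34. The values pool both genotypes, whose Nppa and Kcnj5 means differed most in this list. Whether the amount of atrial tissue in the dissected pieces has a part in the spread of Myl7 and Myl4 was not tested.

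Nppa, which encodes atrial natriuretic peptide and is made by atria and by stressed ventricles, shared the order of Myl7 among wild-type hearts but not among Ezh2-deficient hearts. It read 12.69, 12.46, 12.08, 12.22 and 12.13 in wild-type hearts and 13.61, 13.56, 12.53 and 12.99 in Ezh2-deficient hearts. From lowest to highest, wild-type hearts 3, 5, 4, 2 and 1 had the same order for Nppa and Myl7. Nppa was highest in Ezh2-deficient heart 1, where Myl7 and Myl4 were second lowest. Its difference of 0.86 (SE 0.22, limma adjusted p = 0.222) did not pass. Kcnj5, an atrial potassium channel subunit, differed by -0.54 (SE 0.09, adjusted p = 0.102), which did not pass either. Nppa ran closer to Myl9 (Pearson's r = 0.889 over the 9 arrays, 0.866 without wild-type heart 3). That r pools both genotypes, and Nppa and Myl9 both had a higher mean in Ezh2-deficient hearts (differences 0.86 and 0.63).

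The isoform pairs were then compared within hearts, which tests whether atrial and ventricular chains moved unequally between genotypes and not which is more abundant. Myl2 and Myl3 spanned only 0.16 and 0.20, against 4.66 and 4.23 for Myl7 and Myl4. Each pair therefore nearly repeats the comparison of its atrial gene and is not a separate result. The log2 value of Myl7 minus that of Myl2 was -3.83 ± 1.70 (SD, n = 5) in wild-type and -3.70 ± 1.70 (SD, n = 4) in Ezh2-deficient hearts. The difference was 0.13 (exact two-sided permutation p = 0.921; the smallest p that 5 against 4 hearts allow is 0.00794). For the essential pair, Myl4 minus Myl3, it was -2.94 ± 1.59 and -2.83 ± 1.30, a difference of 0.11 (exact permutation p = 0.905, and 0.921 after adjustment over the 2 pairs). Leaving out 1 heart at a time moved the first pair from -0.61 to 0.79 and the second from -0.60 to 0.64. The low end came without wild-type heart 3 and the high end without Ezh2-deficient heart 1. Neither pair differed by more than its spread between hearts.

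The fast skeletal chains gave no difference past the threshold either. Mylpf, the fast skeletal regulatory chain, lay between 6.42 and 6.68 in wild-type and between 6.62 and 6.65 in Ezh2-deficient hearts, below the median of its own array in all 9 hearts. Its difference was 0.03 (SE 0.05, limma adjusted p = 0.864, interval from -0.09 to 0.15). Without wild-type heart 4, the lowest, it was -0.01. Myl1, the fast skeletal essential chain, lay between 6.73 and 7.29 in wild-type and between 7.001 and 7.43 in Ezh2-deficient hearts, above the array median in 2 of 9 hearts. Its difference was 0.11 (SE 0.12, adjusted p = 0.777, interval from -0.16 to 0.39). It was 0.02 without Ezh2-deficient heart 2 and 0.18 without wild-type heart 4. Among hearts of letter e it was 0.22, and among those of letter x 0.08. Every heart of letter e (6.727 to 7.09) read below every heart of letter x (7.098 to 7.435), and the part of the letter in the Myl1 spread was not tested.

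Of 19 measured skeletal muscle fibre markers, Tnnt1, slow skeletal troponin T, rose (difference 1.93, limma adjusted p = 2.33e-05) and 18 did not pass, with a list median of 0.04. Of all probe sets 0.0243% passed as higher. At an unadjusted p under 0.05, 2 markers were higher and 0 lower, against 5.23% and 5.45% of all probe sets. The list mean, which includes Tnnt1 and Acta1, ran from 7.09 to 7.28 in wild-type and from 7.32 to 7.55 in Ezh2-deficient hearts, without overlap. Acta1, skeletal alpha-actin, differed by 1.23 (adjusted p = 0.17). The fast fibre myosin genes Myh1, Myh2 and Myh4, the usual partners of Mylpf and Myl1, differed by 0.07, 0.05 and -0.06, and the fast troponin genes Tnnt3, Tnni2 and Tnnc2 by 0.03, -0.07 and 0.04, with 0 of these 6 past the threshold. Myod1 and Myog, the regulators that define skeletal muscle, differed by 0.12 and 0.04. By the likeness rule the genes most like Myl1 were Ddit3 (Pearson's r = 0.934 over 9 arrays), Timp3 (0.930) and Cped1 (0.929).

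Myl9, the regulatory chain of smooth muscle, had the largest difference in mean of the 8 genes. It read 9.45, 9.05, 8.84, 9.22 and 8.71 in wild-type hearts 1 to 5 and 9.99, 9.63, 9.29 and 9.85 in Ezh2-deficient hearts 1 to 4. Ezh2-deficient hearts 1, 2 and 4 lay above every wild-type heart, and Ezh2-deficient heart 3 lay inside the wild-type range. The means were 9.06 ± 0.29 (SD, n = 5) and 9.69 ± 0.31 (SD, n = 4). The difference of 0.63 (SE 0.17), or 1.55-fold with an interval from 1.19 to 2.03, did not pass over all probe sets (limma adjusted p = 0.244); an exact two-sided permutation test of this gene alone gave p = 0.0317. Hearts of letter e gave 0.67 and hearts of letter x gave 0.54. The adjusted p ranged from 0.0747, with array weights, to 0.549, without wild-type hearts 4 and 5, where the difference was 0.57.

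Myl6, the essential chain of smooth muscle and of non-muscle cells, is read by 6 probe sets, of which the brightest was used. It read 11.83, 11.54, 11.56, 11.79 and 11.37 in wild-type hearts and 11.83, 11.78, 12.16 and 11.80 in Ezh2-deficient hearts. Ezh2-deficient heart 3 was above all others, and the other 3 Ezh2-deficient hearts lay at the top of the wild-type range. The difference was 0.27 (SE 0.11, limma adjusted p = 0.414; exact permutation p = 0.0873), and it was 0.13 over letter e and 0.40 over letter x. Without Ezh2-deficient heart 3 it was 0.19. That heart also had the highest list means of erythrocyte markers (8.83, others 6.95 to 7.69) and of epicardial markers (7.12, others 6.59 to 6.79) and the lowest of ventricular markers (12.90, others 13.08 to 13.19), and their part in the Myl6 value was not tested. The 6 probe sets gave differences from 0.24 to 0.28 with adjusted p from 0.414 to 0.484. Pearson's r between any 2 of them over the 9 arrays was at least 0.987, so they may read the same transcripts and are not independent.

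**Figure D3:**
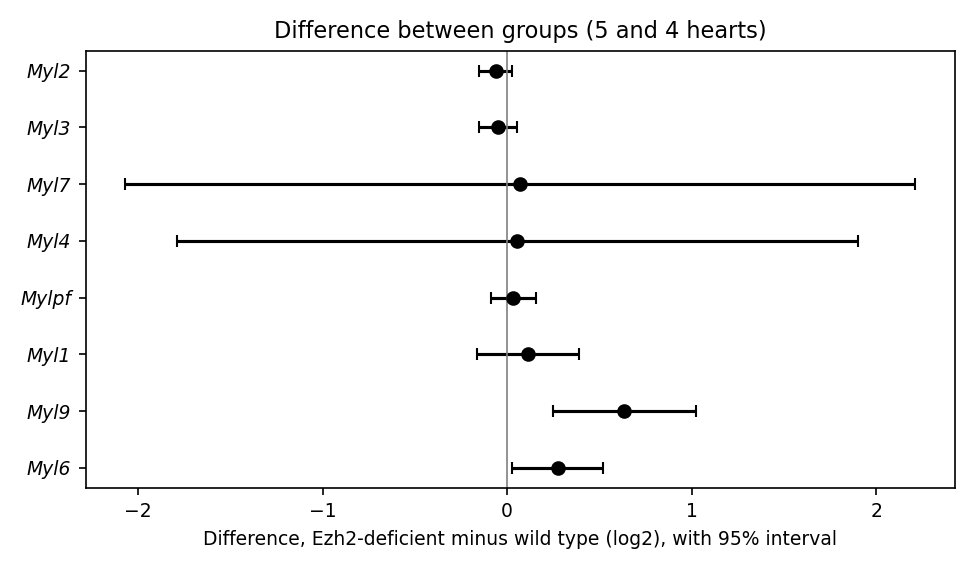
Difference in mean log2 value, Ezh2-deficient minus wild type, of each light chain gene with its 95% interval from limma (5 and 4 hearts). The intervals of Myl2 and Myl3 are the narrowest, those of Myl7 and Myl4 the widest, and those of Myl9 and Myl6 lie above 0 before adjustment over all probe sets.

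Markers of smooth muscle and pericytes were examined beside Myl9. Of 13 measured genes 0 passed by limma, and the median difference was 0.10. At an unadjusted p under 0.05, 0 were higher and 2 lower, against 5.23% and 5.45% of all probe sets. Their list mean ran from 9.03 to 9.33 in wild-type and from 9.27 to 9.45 in Ezh2-deficient hearts. Myh11, the smooth muscle myosin heavy chain that pairs with Myl9, read 8.30 to 8.57 in wild-type and 8.12 to 8.998 in Ezh2-deficient hearts (difference 0.09, adjusted p = 0.86). Acta2, smooth muscle alpha-actin, differed by 0.35 (adjusted p = 0.656) and Tagln, transgelin, by 0.22 (adjusted p = 0.632). The 2 with an unadjusted p under 0.05 were Synpo2 (-0.17) and Abcc9, a pericyte potassium channel regulator (-0.18). Of the 13 markers, Myl9 had its highest Pearson's r over the 9 arrays with Cspg4 (0.753) and Tagln (0.730), and r was 0.522 with Myh11. Without wild-type heart 3, r was 0.874 for Cspg4, 0.802 for Pdgfrb, 0.780 for Smtn and 0.771 for Acta2. It was then 0.684 for Tagln and 0.553 for Myh11, so the place of Tagln depended on that heart. The plot of smooth muscle marker differences shows Myl9 beside them.

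**Figure D4:**
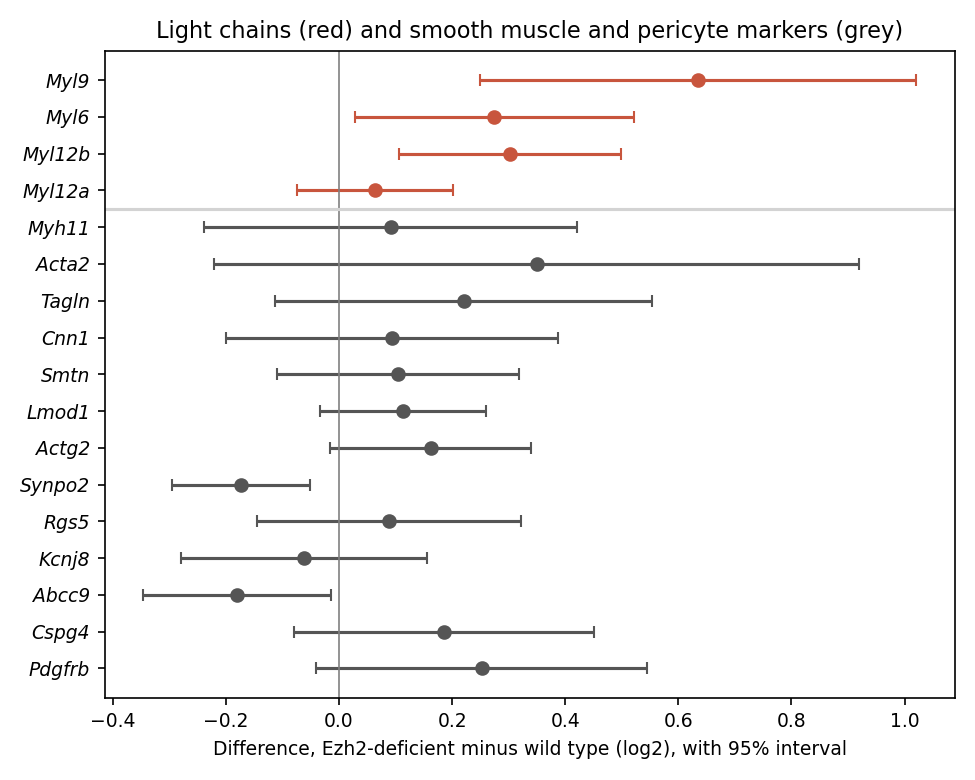
Difference in mean log2 value, Ezh2-deficient minus wild type, with 95% intervals from limma, for 4 light chains of smooth muscle and non-muscle cells (red) and 13 smooth muscle and pericyte markers (grey). Myl9 lies at 0.63, and the 13 markers lie between -0.18 and 0.35.

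Markers of other cell types had higher means in the same direction as Myl9 and Myl6. Of 11 fibroblast markers 8 had an unadjusted p under 0.05, all with a higher mean, against 5.23% of all probe sets as higher. By limma 0 of these markers passed the threshold, with a median difference of 0.55. Their list mean ran from 9.96 to 10.6 in wild-type and from 10.7 to 10.9995 in Ezh2-deficient hearts, without overlap; Mfap5 differed by 0.80, Loxl1 by 0.55 and Pcolce by 0.52. Of 10 endothelial markers 3 had an unadjusted p under 0.05 as higher (Vwf 0.75, Eng 0.43 and Pecam1 0.33), against the same 5.23%. The median of this list was 0.27, with list means of 9.85 to 10.4 and 10.4 to 10.5. Macrophage markers had 0 of 10 at that level and a median of 0.19. Both Myl9 and Myl6 are also made by such cells, and the part of these cell types in the 2 differences was not tested. By the likeness rule the genes most like Myl9 were Grk5 (Pearson's r = 0.946), Bcl10 (0.940) and Hspb1 (0.936), and those most like Myl6 were Ppib (0.992), Itga4 (0.985) and Mpp1 (0.984). These r pool both genotypes, and each of the genes named also had a higher mean in Ezh2-deficient hearts.

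Among 4 further light chains, limma called 0, and 1 of them had a p below 0.05 before adjustment, against 10.7% of all probe sets. Myl12b, a non-muscle regulatory chain, read 10.50, 10.30, 10.39, 10.53 and 10.14 in wild-type hearts and 10.56, 10.70, 10.84 and 10.60 in Ezh2-deficient hearts. The groups did not overlap, as at 3.71% of all probe sets, and the means differed by 0.30 (SE 0.09, adjusted p = 0.271). Its near-identical neighbour Myl12a differed by 0.06 (adjusted p = 0.749), and probes for such similar genes may read both. Myl6b and Myl10 differed by -0.05 and 0.01 and read below every array median.

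Kinases, the phosphatase and their regulators act on the regulatory chains. Of 18 measured genes 0 passed by limma, 1 had an unadjusted p under 0.05 as higher and 1 as lower, near the 10.7% of the whole table, and the median difference was 0.02. Mylk3, the cardiac myosin light chain kinase, which phosphorylates Myl2, lay between 12.13 and 12.31 in wild-type hearts. In Ezh2-deficient hearts it lay between 12.03 and 12.15, a difference of -0.12 (SE 0.05, adjusted p = 0.416). Rhoa, a small GTPase whose signalling restrains the phosphatase, differed by 0.13 (adjusted p = 0.462) and did not overlap between groups, at 12.002 to 12.27 and 12.29 to 12.37. This held for 1 of the 18 genes, against 3.71% of all probe sets. The smooth muscle kinase gene Mylk differed by 0.05, and the phosphatase subunits Ppp1cb, Ppp1r12a and Ppp1r12b by -0.10, 0.0004 and -0.17.

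The heavy chains that carry the light chains were read in the same fit. Of 18 measured heavy chain and myosin-binding protein genes 0 passed by limma, with a median difference of 0.04. At an unadjusted p under 0.05, 2 were higher and 1 lower, against 5.23% and 5.45% of all probe sets. Myh6, the adult mouse ventricular and atrial heavy chain, differed by -0.08 and Myh7, the slow heavy chain, by 0.83 (adjusted p = 0.301). Myh7b, a slow-type relative, differed by -0.43 (SE 0.11, adjusted p = 0.222), with every Ezh2-deficient heart (8.68 to 9.24) below every wild-type heart (9.34 to 9.63). Such a lack of overlap was seen at 1 of the 18 genes, against 3.71% of all probe sets. Myh10, a non-muscle heavy chain, differed by 0.32 (adjusted p = 0.45). Of 16 chamber and muscle regulators Eya1, a coactivator of progenitor and muscle genes, rose (difference 0.57, limma adjusted p = 0.025) and 15 did not pass. Of all probe sets 0.0243% passed as higher. Eya1 was also the 1 regulator whose groups did not overlap, against 3.71% of all probe sets. At an unadjusted p under 0.05, 3 regulators were higher and 2, Hey2 and Myocd, lower, against 5.23% and 5.45% of all probe sets. Tbx20 differed by 0.25 and Eya4 by 0.15, while Tbx5, which acts in atria, differed by -0.11, and the ventricular factors Irx4 and Hey2 by -0.15 and -0.18. Nr2f2 differed by 0.17 and Myocd by -0.25 (limma adjusted p = 0.431).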

How the data were processed

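Every probe set has 1 deposited log2 value on each array. The submitters' processing notes name Affymetrix Power Tools and the method RMA for what the authors did, without versions or settings. In its usual form RMA equalises the arrays' distributions and combines several probes into 1 value, which narrows differences shared by most genes. The log2 scale was read from the method's name and the value range. The table has no detection calls, and 0 further columns of per-sample values.

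Of 28815 probe sets 21780 had 1 gene symbol, 1605 several and 5430 none in the platform annotation, and symbols of 21689 were checked through gene identifiers in a RefSeq table. Groups came from the description label. Differences are Ezh2-deficient minus wild type, tested with limma 3.58.1 in R 4.3.3 (lmFit and eBayes, genotype as the only term, two-sided, Benjamini and Hochberg over all probe sets). The fit was tested on simulated data. Exact permutation tests used every assignment of hearts to groups. The precision is set by the number of arrays: the median standard error was 0.0674.

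Named genes were the 8 members, up to 3 genes with the smallest unadjusted p under 0.05 per list, a short set always named, and the 3 genes most like each member that ranged over more than 0.5. Some listed genes are not reported here. Values of further list members are given as context and were chosen after they were seen. Members, lists and tests were chosen with earlier results of these data known. Sex was read from Xist, Eif2s3y, Kdm5d and Uty. Conduction, epicardial and erythrocyte lists (8, 8 and 3 genes measured) had 0, 1 and 0 genes with an unadjusted p under 0.05, against 10.7% of all probe sets. Their median differences were 0.05, 0.13 and 0.37. The other settings tried were quantile normalization applied again, median centring, letter as a block, the Y-linked mean as a covariate, dim probe sets left out, array weights, another variance prior, other probe sets of a gene and left-out arrays. RefSeq windows of GRCm38.p6 matched all 8 members.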

Additional observations from a re-analysis of the deposited data

Results flagged for a closer look

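Of 16 sets of hearts tested (8 genes in 2 genotypes), 4 had a heart whose gap to the nearest other, relative to the range of its group, was larger than the 95% critical value; chance gives about 1 in 20. In wild-type heart 3, Myl4 read 7.88, against 11.18 to 11.62 in the other wild-type hearts, and Myl7 read 6.97, against 10.28 to 11.10. These 2 values belong to 1 heart and 2 genes that moved together, so they are not separate events. In Ezh2-deficient heart 3, Myl6 read 12.16, against 11.78 to 11.83 in the other 3; the same heart had the lowest array weight (0.373) and stood apart in erythrocyte, epicardial and ventricular markers. In wild-type heart 4, Mylpf read 6.42, against 6.63 to 6.68 in the others.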

How the results depend on the processing

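The number of light chains past the threshold was 0 in all 17 alternatives run, with a smallest adjusted p for any member of 0.0747 (array weights), although the number of all probe sets called moved from 10 to between 3 (Y-linked mean as a covariate, or 1 heart left out) and 37 (array weights). Myl1, Myl3, Myl6 and Myl9 kept the sign of their difference in every setting, Myl9 between 0.53 and 0.78 and Myl6 between 0.13 and 0.40. The Myl7 and Myl4 differences of 0.07 and 0.06 became 0.97 and 0.83 with array weights and 0.48 and 0.33 with the Y-linked covariate. Wild-type heart 3, the lowest for both genes, had the highest array weight (2.30), while wild-type hearts 4 and 5 had 0.431 and 0.640. The weighted values of Myl7 and Myl4 therefore lean on wild-type heart 3. The mean of Myl4 and Myl7 as a covariate, added after the data were seen, differed so little between genotypes that it could hardly move the size of any difference. Standard errors and calls did change. With it 5 probe sets passed, including 4 of the 10 of the main fit, and the SE of Dkk3 went from 0.20 to 0.07. Within letter e the sign turned for Myl2 (0.0015), Myl4 (-1.22) and Myl7 (-1.39) and for the pairs Myl7 minus Myl2 (-1.39) and Myl4 minus Myl3 (-1.19), all with 2 hearts a group. Without wild-type hearts 4 and 5 together it turned for Mylpf (-0.01425). With 1 heart left out the values ran from -0.64 to 0.57 for Myl4, -0.67 to 0.71 for Myl7, -0.01075 to 0.05225 for Mylpf, -0.61 to 0.79 for Myl7 minus Myl2 and -0.60 to 0.64 for Myl4 minus Myl3, with negative values without wild-type heart 3 or Ezh2-deficient heart 2 or 4 for the atrial genes and pairs and without wild-type heart 4 for Mylpf; the cause was not tested. No paired analysis was possible because replicate numbers were given in the order of the samples and the labels pair no hearts. With 5 and 4 arrays, the atrial genes' spread sets what could be detected.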
